A study of Mus musculus with 2 samples.

Results

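The genes described here are 9 that build or serve the blood-brain barrier, taken by symbol from the 32285 genes of the deposited tables. They are the tight junction genes Cldn5, Ocln and Tjp1, the transporter genes Slc2a1, Slc7a5, Mfsd2a and Slco1a4, and the efflux pump genes Abcb1a and Abcg2. Each symbol matched 1 row in each table. The study compared dissociated cortex of Fam69c knockout (KO) and wild-type (WT) mice by droplet-based single-cell RNA sequencing. Male mice aged 4 months were used, and the cortices were pooled by genotype, giving 1 KO library and 1 WT library. The labels name 7 mice without saying whether per genotype, and neither the strain nor the deleted part of the gene is stated in the labels. Cells of both libraries were stained with 7-AAD, a dye that enters dying cells, and sorted before capture.

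The blood-brain barrier is the lining of brain capillaries: endothelial cells sealed to each other by tight junctions, with few transport vesicles. Because little can pass between the cells, glucose, amino acids and lipids cross on dedicated carriers, while pumps of the ABC family return many drugs and toxins to the blood. Pericytes and the end feet of astrocytes cover the vessels and help to keep the endothelium in this state.

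With 1 library per genotype there was no test, and a difference of genotype cannot be told apart from a difference of pool. Levels are unique molecular identifiers (UMIs, each standing for 1 captured transcript read at its 3' end) scaled to 1000000 UMIs of a cell class in a library, written as CPM. The 95% intervals given are exact and reflect counting error alone, and log2 ratios are KO over WT. The KO library held 9182 barcodes and 75473717 UMIs, and the WT library 7150 barcodes and 57166105 UMIs. After filters, 7032 KO and 4940 WT cells were used, with median UMIs of 8438 and 8570.0, and 17 cell barcodes occurred in both libraries. The targeted gene, listed as Dipk1c, was at 33.1 CPM in KO and 57.7 CPM in WT astrocyte-like cells, and had 1 UMI in KO and 3 UMIs in WT endothelial-like cells. Reads at the 3' end cannot show whether the remaining Dipk1c transcript is intact.

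Each cell was assigned to a class by markers of 20 cell types, none of them a member, with a scoring rule set after the cells were seen. Endothelial-like cells numbered 255 in the KO library (3.63% of cells, 3.20 to 4.09%) and 166 in the WT library (3.36%, 2.88 to 3.90%). Their median UMIs were 2717 in the KO library and 3159.5 in the WT library, shallower than the cells used overall. All 12 endothelial markers had UMIs in this class in both libraries, and each was far above its level elsewhere. Assignment by these same markers favoured that in advance, so it is no separate check of the class. Flt1, a VEGF receptor gene, was at 5942 CPM in KO and 6645 CPM in WT endothelial-like cells, against 5.84 CPM and 7.81 CPM in all other classes of the KO and WT libraries. Markers of other types were also present: those of pericytes held 0.0445% of the UMIs of KO and 0.125% of WT endothelial-like cells, those of smooth muscle 0.00138% and 0.0178%, and those of astrocytes 0.0899% and 0.108%. Monocyte markers held 0.102% of the UMIs in KO and 0.0884% in WT. Hemoglobin genes, which mark red blood cells, held 2.27% of the UMIs of KO and 1.90% of WT endothelial-like cells, as much as the 12 endothelial markers together (1.90% in KO and 1.87% in WT). They were unevenly spread, with a median per cell of 0.242% in KO and 0.334% in WT and a highest value of 87.8% in KO and 19.1% in WT. The part of these transcripts in the results below was not tested, except where cells carrying them were left out.

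The upstream sequences of 5 members are shown because these genes span the patterns found below, from transcripts nearly confined to endothelium to transcripts mostly outside it. Each is the 250 bases before a RefSeq transcription start in GRCm38.p6, printed 5′ to 3′ on the gene's strand. Capitals mark matches to short motifs searched on both strands. The letters CCAAT occur in 33.8% of 32851 such mouse regions, the GC box GGGCGG in 32.7% and the ETS core AGGAAG in 29.5%. The SOX word ACAATG occurs in 10.7% of them, the TCF/LEF word CTTTGA in 13.8% and the TATA word TATAAA in 12.4%. No match overlaps another in the windows shown, and a match describes the letters, not a bound site.
Cldn5 lies at chr16:18776597-18776846 (plus strand), Tjp1 at chr7:65371245-65371494 (minus), Slc2a1 at chr4:119108495-119108744 (plus), Mfsd2a at chr4:122961189-122961438 (minus) and Slco1a4 at chr6:141856221-141856470 (minus). The Tjp1 window lies inside the span that GENCODE gives for the gene, and so does the end of the Slc2a1 window, which holds its GC box nearest the start.
Cldn5: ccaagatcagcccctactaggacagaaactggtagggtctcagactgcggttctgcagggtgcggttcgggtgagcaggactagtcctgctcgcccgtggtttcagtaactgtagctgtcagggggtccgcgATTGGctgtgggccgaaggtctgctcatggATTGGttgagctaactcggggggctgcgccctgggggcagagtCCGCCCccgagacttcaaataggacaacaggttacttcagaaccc
Tjp1: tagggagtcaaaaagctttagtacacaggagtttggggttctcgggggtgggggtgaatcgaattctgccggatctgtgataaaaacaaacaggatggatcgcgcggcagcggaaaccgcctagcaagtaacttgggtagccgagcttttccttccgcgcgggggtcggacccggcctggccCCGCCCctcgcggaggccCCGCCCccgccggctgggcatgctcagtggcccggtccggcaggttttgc
Slc2a1: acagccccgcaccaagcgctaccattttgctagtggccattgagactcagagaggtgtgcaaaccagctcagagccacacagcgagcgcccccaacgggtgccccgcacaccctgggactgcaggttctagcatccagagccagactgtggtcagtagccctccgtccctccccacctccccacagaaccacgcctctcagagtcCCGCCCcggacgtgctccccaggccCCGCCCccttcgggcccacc
Mfsd2a: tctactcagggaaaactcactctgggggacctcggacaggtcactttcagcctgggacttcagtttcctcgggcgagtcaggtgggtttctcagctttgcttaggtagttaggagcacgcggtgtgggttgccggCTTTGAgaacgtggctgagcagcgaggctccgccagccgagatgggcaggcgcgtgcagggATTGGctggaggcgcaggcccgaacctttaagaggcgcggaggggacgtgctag
Slco1a4: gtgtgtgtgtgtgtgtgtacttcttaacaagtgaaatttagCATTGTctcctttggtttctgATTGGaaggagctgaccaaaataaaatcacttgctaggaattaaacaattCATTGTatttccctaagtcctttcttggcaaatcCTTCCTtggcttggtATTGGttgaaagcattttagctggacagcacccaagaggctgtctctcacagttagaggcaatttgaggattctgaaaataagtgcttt
Cldn5 and Slco1a4, whose cell patterns below were nearly the same, differ in these windows. The Cldn5 window has a GC content of 59.6% with 12 CpG sites, and the Slco1a4 window 39.2% with 0, where the median of all regions is 52.4% with 6 CpG sites. Both hold 2 matches to CCAAT, and Slco1a4 alone of the 5 holds matches to the ETS and SOX words. The Mfsd2a window holds 1 CCAAT and the only TCF/LEF word of the 5. Tjp1 and Slc2a1, which were found in many cell types, each hold 2 GC boxes, with GC contents of 63.2% and 66.4%. Of the 9 members, 8 have an entry in the table of these regions and Slc7a5 does not.

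All 9 genes had their highest level in endothelial-like cells in both libraries, among the 9 classes that reached 30 cells in both libraries. Of the 15920 genes with at least 50 UMIs in the classed cells, 6.77% had that pattern. At least 2-fold over all other classes together were 8 of the 9 in KO, where 14.5% of genes were, and 9 of 9 in WT, where 13.8% were. The genes differed widely in how far endothelium stood apart. Cldn5 and Slco1a4 were nearly confined to it, Tjp1 and Slc2a1 were shared with many types, and the Mfsd2a level in astrocyte-like cells came close to the endothelial one. The fold over the next highest class was beyond the counting interval for every member in both libraries.

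Cldn5 (chr16:18776847-18778262, GRCm38) encodes claudin-5, the main sealing protein of brain endothelial tight junctions. It was at 5236 CPM (5091 to 5384) in KO and 4472 CPM (4340.4 to 4606) in WT endothelial-like cells, 1197-fold and 538-fold over all other classes of the same library. This class held 95.1% of the Cldn5 UMIs of classed KO cells and 92.4% of those of WT cells. A Cldn5 UMI was found in 98.8% of KO and 97.6% of WT endothelial-like cells. In astrocyte-like cells, which are not known for claudin-5, it was found in 2.02% of KO and 3.50% of WT cells, although their median UMIs were 8858 and 10387. With each cell thinned to 1500 UMIs, which kept 202 of 255 KO and 135 of 166 WT endothelial-like cells, the endothelial shares were 99.0% and 98.5%, against 0.487% and 1.16% of astrocyte-like cells.

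Ocln (chr13:100496507-100552718) encodes occludin, a membrane protein of tight junctions that regulates rather than forms the seal. It was at 282 CPM (249 to 318) in KO and 251 CPM (221 to 285) in WT endothelial-like cells, 286-fold and 159.9-fold over all other classes. Among the classes compared its distribution was close to that of Cldn5, with 82.4% of KO and 78.4% of WT UMIs in endothelial-like cells, but fewer cells showed it. Ependymal-like cells, with 26 in KO and 23 in WT too few for that comparison, held Ocln at 75.6 CPM in KO and 114 CPM in WT. They had 24 of the 57 Ocln UMIs of all other classes in KO and 35 of the 68 in WT. Cldn5 had 0 UMIs in KO and 1 in WT there. An Ocln UMI was found in 50.6% of KO and 56.6% of WT endothelial-like cells, and after thinning in 29.2% and 23.7%, against 0.0730% and 0.185% of astrocyte-like cells.

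Tjp1 (chr7:65296165-65527781) encodes ZO-1, the scaffold that ties junction proteins to actin in many tissues, and it was the least endothelial of the junction genes. It was at 603 CPM (555 to 655) in KO and 743 CPM (690.5 to 799) in WT endothelial-like cells, 5.19-fold and 4.56-fold over all other classes. Pericyte-like cells came next with 378 CPM (294 to 477) in KO and 569 CPM (456 to 701) in WT, which put endothelium 1.60-fold (1.24 to 2.08) and 1.31-fold (1.05 to 1.65) above them. Astrocyte-like, oligodendrocyte-like and microglia-like cells lay close together, between 129.8 and 137 CPM in the KO library and between 168 and 189.6 CPM in the WT library. Only 7.80% of KO and 9.39% of WT Tjp1 UMIs were in endothelial-like cells. B cell-like cells had 0 UMIs in both libraries, where 3 UMIs would make 7.08 CPM in KO and 5.12 CPM in WT.

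Slc2a1 (chr4:119108711-119137983) encodes GLUT1, which carries glucose across the barrier and also feeds glia and blood cells. It was at 2144 CPM (2052 to 2239.5) in KO and 1761 CPM (1679 to 1846) in WT endothelial-like cells. That was 18.0-fold and 15.8-fold over all other classes. Astrocyte-like cells held 155 CPM (151 to 159) in KO and 146 CPM (141 to 151) in WT, oligodendrocyte-like cells 85.1 and 89.2 CPM, and neutrophil-like cells 64.9 and 68.6 CPM. The lowest class was neuroblast-like, with 9.08 CPM in KO and 7.10 CPM in WT. Because the glial classes are large, endothelium accounted for 22.7% of Slc2a1 UMIs in the KO and 26.4% in the WT library.

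Slc7a5 (chr8:121881150-121907694) encodes LAT1, the carrier of large neutral amino acids, which also takes thyroid hormone and L-DOPA. It was at 851 CPM (793 to 912) in KO and 651 CPM (601 to 703) in WT endothelial-like cells, which was 45.5-fold to 55.0-fold over all other classes in KO and 36.0-fold to 44.7-fold in WT. Other gene models overlap Tjp1, Slc2a1 and Abcb1a on both strands, and their part in the counts was not tested. Slc7a5 is overlapped by an antisense gene model alone, which could share reads if strand was not used in counting. Astrocyte-like, neuroblast-like and microglia-like cells shared a low level of 21.1 to 23.4 CPM in the KO library and 19.8 to 26.8 CPM in the WT library. Oligodendrocyte-like cells were lower still, at 1.03 CPM in KO and 1.22 CPM in WT.

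Mfsd2a (chr4:122946850-122961188) encodes the sodium-dependent carrier of lysophospholipids that brings docosahexaenoic acid into the brain and keeps transcytosis low in brain endothelium. Endothelial-like cells held 357 CPM (320.0 to 397) in KO and 303 CPM (269.6 to 339) in WT. Astrocyte-like cells held 304 CPM (298 to 309.8) in KO and 217 CPM (211 to 223) in WT, so the endothelial level was only 1.17-fold (1.05 to 1.31) and 1.40-fold (1.24 to 1.57) higher. An Mfsd2a UMI was found in 77.6% of KO and 66.1% of WT astrocyte-like cells, and after thinning in 34.7% and 25.7%, close to the 35.1% and 35.6% of endothelial-like cells. Oligodendrocyte-like cells held 28.2 CPM in KO and 22.6 CPM in WT, and microglia-like cells, which are not known for this carrier, 8.93 and 3.19 CPM. Endothelium therefore held only 2.83% of the Mfsd2a UMIs of classed KO cells and 4.88% of those of WT cells.

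Slco1a4 (chr6:141805440-141856199) encodes OATP1A4, a carrier of organic anions, bile acids and steroid conjugates in rodents. It was at 2609 CPM (2507 to 2714) in KO and 2493 CPM (2395 to 2593) in WT endothelial-like cells, 1179-fold and 922-fold over all other classes. This class held 95.1% of its UMIs in the KO and 95.4% in the WT library, as sharp a pattern as that of Cldn5. The near copies Slco1a5 and Slco1a6 had 0 UMIs in endothelial-like cells of both libraries, where 3 UMIs would make 3.18 CPM in KO and 3.05 CPM in WT. Slco1a1 had 0 in KO and 1 in WT.

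Abcb1a (chr5:8660077-8748575) encodes P-glycoprotein, the drug efflux pump of brain endothelium in mice. It was at 1268 CPM (1197 to 1341) in KO and 1415 CPM (1341 to 1491) in WT endothelial-like cells, 269.6-fold and 186-fold over all other classes. T cell-like cells held 16.3 CPM (10 UMIs) in KO and 26.2 CPM (16 UMIs) in WT, against 1.37 and 3.19 CPM in microglia-like cells. Fibroblast-like cells, with 17 cells in WT too few for the comparison of classes, held more, at 305 CPM in KO and 521 CPM in WT. They had 148 of the 272 Abcb1a UMIs of all other classes in KO and 162 of the 329 in WT. Abcb1b, the related pump gene used in other mouse tissues, had 7 UMIs in KO and 4 UMIs in WT endothelial-like cells, and the labels do not say how reads shared by these near copies were counted.

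Abcg2 (chr6:58584523-58695676) encodes BCRP, the other main drug efflux pump of the barrier. It was at 884 CPM (825 to 946) in KO and 839 CPM (783 to 898) in WT endothelial-like cells, 68.5-fold and 62.7-fold over all other classes. Microglia-like cells held 34.4 CPM (25.5 to 45.3) in KO and 47.8 CPM (37.6 to 59.9) in WT, and oligodendrocyte-like cells 14.4 and 11.9 CPM. Fibroblast-like cells, with 17 cells in WT too few for the comparison of classes, came much closer to endothelium. Their Abcg2 level was 646 CPM (577 to 722) in KO and 572 CPM (491 to 663) in WT. They had 314 of the 746 Abcg2 UMIs of all other classes in KO and 178 of the 579 in WT. Endothelium held 52.8% of the Abcg2 UMIs in the KO and 58.8% in the WT library.

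**Figure D1:**
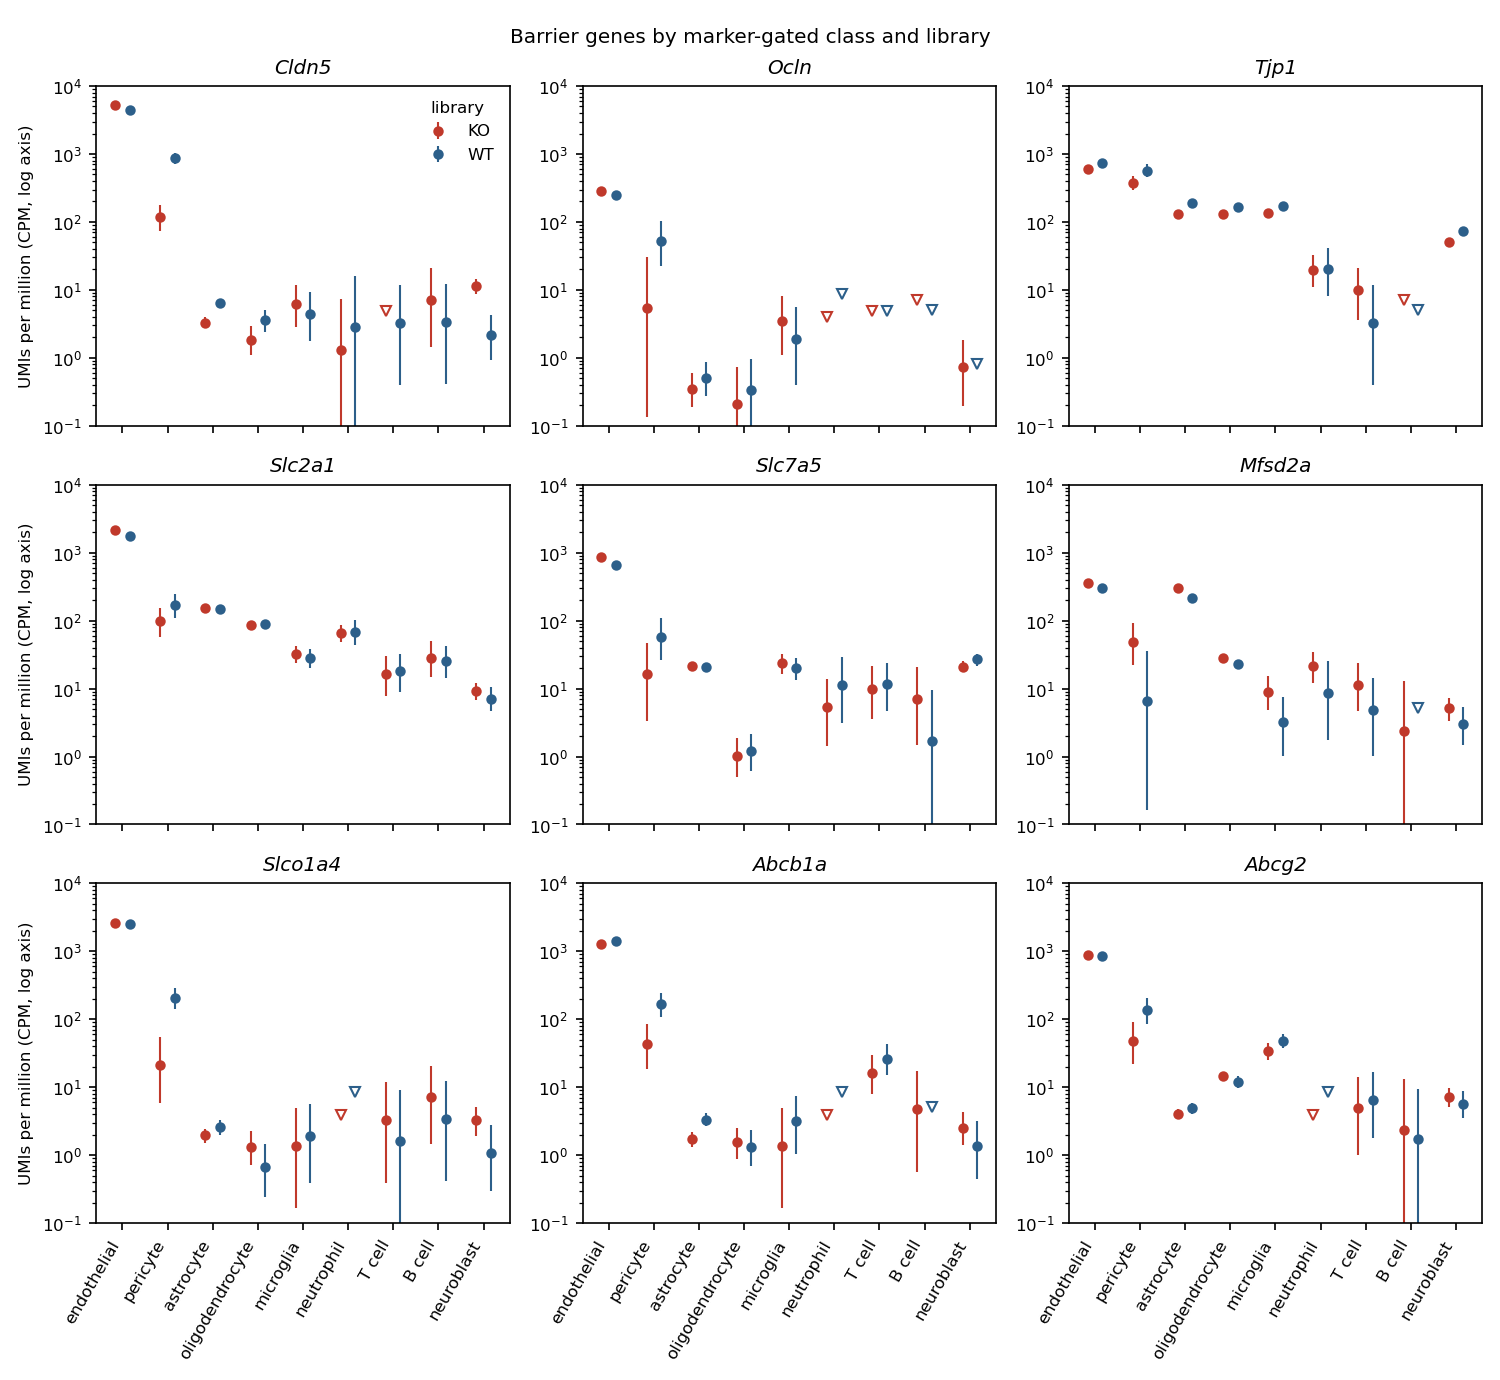
Level of each gene (CPM, log axis) in 9 marker-gated classes, with KO points left of WT points and exact 95% counting intervals; open triangles mark classes with 0 UMIs at the level 3 UMIs would make. Endothelial-like cells are highest in every panel, with the smallest gaps for Mfsd2a over astrocyte-like cells (1.17-fold in KO, 1.40-fold in WT) and Tjp1 over pericyte-like cells (1.60-fold in KO, 1.31-fold in WT).

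Over the 9 classes with the libraries pooled, the log2(CPM + 10) pattern of Cldn5 correlated with that of Slco1a4 at r = 0.99 and with that of Ocln at r = 0.98, while the least alike pair was Mfsd2a and Abcg2 at r = 0.56. These correlations describe 9 classes that share libraries. Other genes were ranked by mean correlation with the 9 members if they had at least 100 UMIs in endothelial-like cells. The 12 endothelial markers were left out of that ranking. The highest were 2900026A02Rik (0.91), then Wfdc1, Nos3, Kank3, Shroom4, Arhgef5, Slc30a1 and Slc16a9 (0.90 each). Nos3 encodes endothelial nitric oxide synthase and was at 231 CPM in KO and 237 CPM in WT endothelial-like cells. Slc30a1 encodes a zinc exporter and was at 368 CPM in KO and 432 CPM in WT.

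Pericyte-like cells, for most members the second highest of the classes compared, were few, with 59 in KO and 31 in WT. Their Cldn5 value rested on a few cells, while Tjp1 had UMIs in 32 of 59 KO and 23 of 31 WT cells. Cldn5 had 22 UMIs there in KO and 133 in WT, of which 1 KO cell held 21 and 2 WT cells held 117. Cells with UMIs of at least 2 endothelial markers numbered 25 of 59 in KO and 20 of 31 in WT. Without them, Cldn5 had 1 UMI in each library, and Slco1a4 and Abcb1a had 0 in both. Tjp1 was still at 423 CPM (299 to 581) in KO and 419.5 CPM (229 to 704) in WT pericyte-like cells without them. In neuroblast-like cells Cldn5 had 63 UMIs in KO and 8 in WT, and 50 of the 63 lay in 7 cells with such markers. Without the cells with such markers its levels there were 2.42 CPM (1.29 to 4.14) in KO and 1.40 CPM (0.454 to 3.26) in WT.

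The members were seen together in single endothelial-like cells. With every cell thinned to 1500 UMIs, a median of 6 of the 9 genes had a UMI in endothelial-like cells of either library. At least 5 of them had a UMI in 181 of 202 KO cells (89.6%) and 121 of 135 WT cells (89.6%), and no endothelial-like cell had 0. Of astrocyte-like cells, none of 4109 in KO and 1 of 2163 in WT reached 5 genes, and 41.6% of KO and 44.1% of WT cells had none. Among microglia-like cells 71.2% in KO and 70.5% in WT had none.

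**Figure D2:**
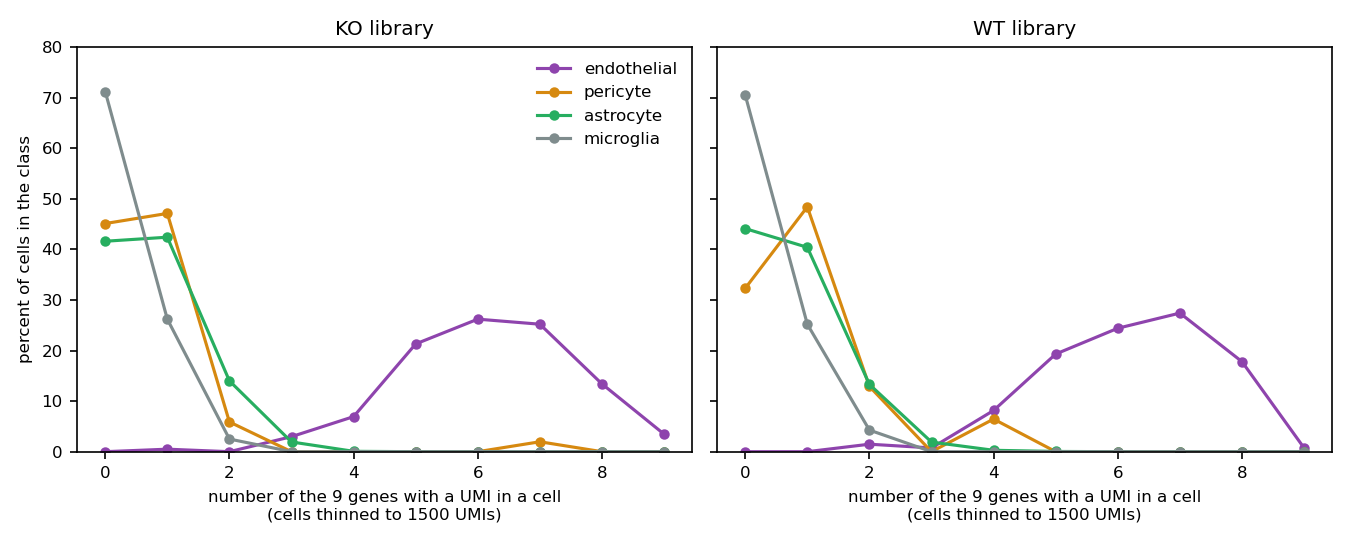
Percent of cells (vertical axis) by how many of the 9 genes had at least 1 UMI after thinning to 1500 UMIs (horizontal axis), for 4 classes in the KO library (left) and the WT library (right). Endothelial-like cells centre on a median of 6 genes in both libraries, while pericyte-like, astrocyte-like and microglia-like cells mostly show 1 gene or 0.

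The comparison of the libraries asked whether the barrier genes differed between KO and WT endothelium. None of the 9 members was 1.5-fold apart, while 12.4% of the 5938 genes with at least 50 UMIs in this class were (5.47% higher and 6.96% lower in KO). The log2 ratio was above 0 for 7 members and below 0 for 2, with a median of 0.17, beside a median of -0.02 and quartiles of -0.28 and 0.23 over all these genes. The 12.4% includes genes near 50 UMIs, where counting error is larger. The member with the fewest UMIs, Ocln, had 266 in KO and 247 in WT, and a share of genes at matched depth was not taken. Slc7a5 was furthest up at 0.39 (0.24 to 0.54), followed by Slc2a1 at 0.28 (0.19 to 0.38) and Cldn5 at 0.23 (0.17 to 0.29). Tjp1 was lowest at -0.30 (-0.46 to -0.14), and Abcb1a was at -0.16 (-0.27 to -0.05). For Ocln at 0.17 (-0.09 to 0.42), Slco1a4 at 0.07 (-0.02 to 0.15) and Abcg2 at 0.08 (-0.07 to 0.22) the counting interval held 0, and for Mfsd2a at 0.24 (0.01 to 0.47) it nearly did.

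Only part of this held under other choices. Leaving out the 25 KO and 24 WT endothelial-like cells with UMIs of at least 2 mural markers brought the median of the members to 0.00, and thinning every cell to 1500 UMIs brought it to 0.02. Slc2a1 was at 0.12 without the cells with mural markers. With thinning Slc7a5 was at 0.09 and Ocln at 0.62, past 1.5-fold. Cldn5, Slc2a1 and Slc7a5 stayed above 0 and Tjp1 and Abcb1a below 0 in all 11 alternatives, whereas Slco1a4 and Abcg2 each changed sign in 3. Mfsd2a came to 0.00 without the cells with mural markers and to -0.06 with thinning. The ratios of all genes also went with the span of the gene in GENCODE M21: the median was 0.19 for genes under 5 kb (Cldn5), 0.12 from 5 to 20 kb (Mfsd2a), -0.05 from 20 to 50 kb (Slc2a1 and Slc7a5), -0.15 from 50 to 100 kb (Ocln, Slco1a4 and Abcb1a) and -0.23 from 100 kb (Tjp1 and Abcg2). Its part in the members' ratios was not tested.

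**Figure D3:**
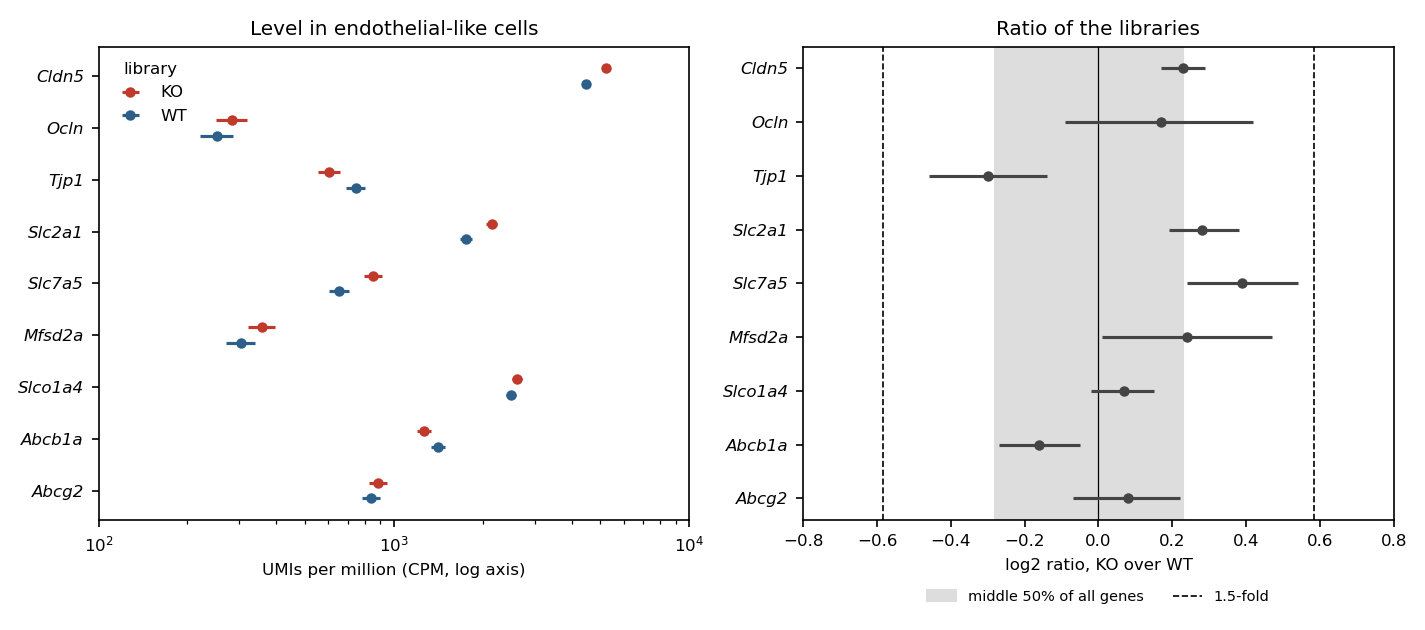
Left, level of each gene in endothelial-like cells (CPM, log axis), KO above WT, with exact 95% counting intervals; right, the log2 ratio KO over WT with its interval, the middle 50% of 5938 genes in grey and 1.5-fold as dashed lines. No gene passes 1.5-fold; Slc7a5 lies highest at 0.39 and Tjp1 lowest at -0.30.

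In astrocyte-like cells Mfsd2a was the member with the highest ratio, while Abcb1a (-0.97), Cldn5 (-0.96) and Tjp1 (-0.55) lay further from 0 in the other direction. The Mfsd2a log2 ratio was 0.49 (0.44 to 0.53), higher than that of 95.5% of the 13602 genes reaching 50 UMIs in these cells, and it ranged from 0.48 to 0.51 over 7 alternatives. It was short of 1.5-fold, as were all but 2.49% of genes in the upward direction. Tjp1 was lower in KO, with 129.8 CPM (126 to 134) against 189.6 CPM (184 to 195) in WT, a log2 ratio of -0.55 (-0.61 to -0.49) with a range of -0.57 to -0.42. It was below 0 in endothelial-like, oligodendrocyte-like (132 CPM in KO, 168 CPM in WT), microglia-like (137 and 169 CPM) and neuroblast-like cells (50.7 and 73.0 CPM) as well. Slc2a1 at 0.08 (0.02 to 0.14) and Slc7a5 at 0.02 (-0.14 to 0.18) differed little. Of the 8 members with at least 50 UMIs, Cldn5 (3.29 CPM in KO, 6.38 CPM in WT) and Abcb1a (1.71 and 3.35 CPM) were over 1.5-fold lower in KO, where 9.47% of genes were. Without the 29 KO and 57 WT astrocyte-like cells with at least 2 endothelial markers, Cldn5 was at 2.27 CPM (1.81 to 2.82) in KO and 2.87 CPM (2.25 to 3.62) in WT, and Abcb1a at 1.48 CPM (1.11 to 1.93) in KO and 2.71 CPM (2.11 to 3.44) in WT. Before that removal, 3 astrocyte-like cells held 17 of the 63 Abcb1a UMIs in KO, and 3 held 37 of the 85 in WT. Either way past 1.5-fold were 12.0% of genes in astrocyte-like cells.

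In the other classes few members could be compared. Of 4 with at least 50 UMIs in microglia-like cells none was 1.5-fold apart, beside 12.3% of genes. Of 5 in oligodendrocyte-like cells, Cldn5 was lower with 18 UMIs in KO and 32 in WT (7.96% of genes apart). Without cells with at least 2 endothelial markers it had 16 UMIs in KO (1.72 CPM, 0.986 to 2.80) and 21 UMIs in WT (2.37 CPM, 1.47 to 3.62). These were fewer than the 50 UMIs that ratios needed. The Mfsd2a log2 ratio in oligodendrocyte-like cells was 0.32 (0.05 to 0.58). Of 5 in neuroblast-like cells, Cldn5 alone was apart (12.6% of genes), with 50 of its 63 KO UMIs in the 7 cells described above. Without the cells with endothelial markers, 13 UMIs in KO and 5 in WT remained, too few for a ratio. Both members measured in pericyte-like cells, Cldn5 and Tjp1, were lower in KO (24.3% of genes apart). Without the cells with endothelial markers Tjp1 was close in both libraries, at 423 CPM in KO and 419.5 CPM in WT. Cldn5 then had 1 UMI in each library, too few to compare.

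Along the vessel tree, endothelial-like cells were split by markers of arteries and veins, needing at least 3 markers of one list and a 1.5-fold lead, a rule set after the cells were seen. This gave 24 KO and 27 WT arterial-leaning cells, 45 KO and 27 WT venous-leaning cells, and 186 KO and 112 WT cells of neither kind, which had lower median UMIs (2469 in KO and 2465 in WT) than the arterial-leaning cells (3880.5 and 8158) and the venous-leaning cells (4174 and 8792). Slc7a5 was lower on the arterial side, with 489.7 CPM in arterial-leaning and 752 CPM in venous-leaning KO cells, a log2 ratio of -0.62 (-1.04 to -0.21), and with 277 and 653 CPM in WT, a log2 ratio of -1.23 (-1.64 to -0.84). It was highest in cells of neither kind, at 985 CPM (905 to 1071) in KO and 883 CPM (796 to 977) in WT. Abcg2 was also lower in arterial-leaning cells, at -0.49 (-0.85 to -0.14) in KO and -0.47 (-0.75 to -0.19) in WT, and Cldn5 slightly so, at -0.17 (-0.31 to -0.03) and -0.35 (-0.47 to -0.24).

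Slc2a1 leaned the other way, with arterial over venous log2 ratios of 0.30 (0.10 to 0.49) in KO and 0.24 (0.07 to 0.42) in WT. Mfsd2a was at 504 CPM in arterial-leaning and 205 CPM in venous-leaning KO cells, a log2 ratio of 1.30 (0.76 to 1.85), and at 296 and 235 CPM in WT, a log2 ratio of 0.33 (-0.15 to 0.82). Ocln was higher in arterial-leaning KO cells, at 0.84 (0.21 to 1.48), while the WT interval held 0, at 0.49 (-0.01 to 0.99). Tjp1 was at -0.35 (-0.78 to 0.06) in KO and -0.30 (-0.60 to -0.01) in WT, lower in arterial-leaning cells with a KO interval that held 0. For Slco1a4 the intervals held 0, at -0.01 (-0.20 to 0.19) in KO and -0.08 (-0.24 to 0.08) in WT, as they did for Abcb1a, at 0.21 (-0.05 to 0.46) and -0.02 (-0.22 to 0.19).

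**Figure D4:**
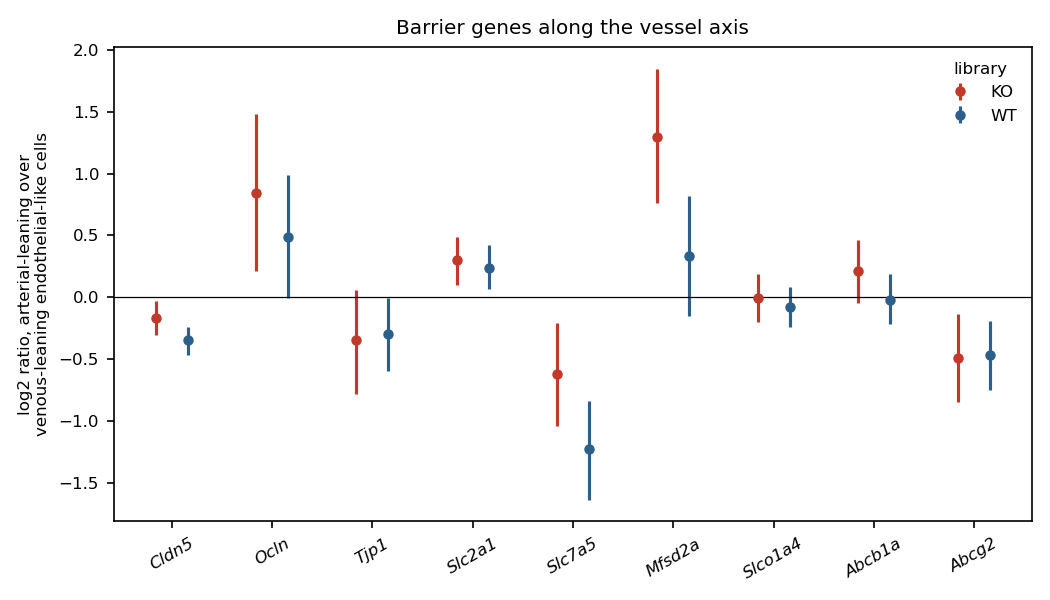
Log2 ratio of arterial-leaning over venous-leaning endothelial-like cells for each gene, KO left of WT, with exact 95% counting intervals from 24 and 45 KO cells and 27 and 27 WT cells. Slc7a5 and Abcg2 lie below 0 and Slc2a1 above 0 in both libraries; the Mfsd2a ratio is 1.30 in KO and 0.33 in WT.

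Other genes of the barrier were read from 9 lists in endothelial-like cells, beside the 12.4% of all genes that were 1.5-fold apart. Of the tight and adherens junction list, 11 of 20 genes had at least 50 UMIs, none was 1.5-fold apart and the median log2 ratio was -0.05. Lsr, which encodes angulin-1 of tricellular junctions, was at 401 CPM in KO and 297 CPM in WT (0.43, 0.21 to 0.66), and Cdh5, VE-cadherin of adherens junctions, at 489 and 566 CPM (-0.21, -0.39 to -0.03).

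Of 20 further solute carrier genes 15 were measured, with a median of 0.02, 2 higher and 1 lower by 1.5-fold. Slc3a2, the heavy chain that pairs with LAT1, was at 857 CPM in KO and 532 CPM in WT, a log2 ratio of 0.69 (0.53 to 0.85) that ran from 0.59 to 0.91 over 9 alternatives. It thus had the same direction as its partner Slc7a5. Slc6a6, the taurine carrier, was at 1263 CPM in KO and 2103 CPM in WT (-0.74, -0.84 to -0.63, from -0.78 to -0.60 over the alternatives). Slco1c1, the thyroid hormone carrier OATP1C1, was at 1435 and 1390.2 CPM (0.05, -0.06 to 0.16).

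The other 4 barrier groups had medians below the -0.02 of all genes and within its quartiles. Of 8 ABC transporter genes 3 were measured (median -0.24, 1 lower by 1.5-fold), with Abcc4, the pump MRP4, at 206 CPM in KO and 196 CPM in WT. Of 8 receptors of transcytosis 6 were measured, all with ratios below 0 (median -0.26, 1 lower by 1.5-fold), with the transferrin receptor Tfrc at 355 and 416 CPM and Igf1r, the insulin-like growth factor receptor, at 1571 and 1702 CPM. Of 8 genes of caveolae and fenestrae 7 were measured (median -0.13, 1 higher). That 1 was Cavin3, a coat protein of caveolae, at 218 CPM in KO and 127 CPM in WT (0.78, 0.45 to 1.11), which came to 0.10 with thinning. Of 20 Wnt pathway and transcription factor genes 19 were measured (median -0.15, 1 lower). Foxq1 was at 518 CPM in KO and 493 CPM in WT, Sox18 at 528 and 618 CPM and Lef1, a Wnt effector, at 461 and 555 CPM. The 1 lower was Lrp6, a Wnt co-receptor, at 86.9 and 146 CPM (-0.75, -1.16 to -0.35). The Lrp6 ratio was short of 1.5-fold with clusters in place of the gate, at -0.58, and was -1.24 without the cells with mural markers.

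The vessel-segment lists held most of the larger differences in the venous list. Of 7 arterial genes measured (median -0.24) 1 was higher, of 5 capillary genes (median -0.02) none was apart, and of 10 venous genes (median 0.26) 4 were higher and 4 lower. Lcn2, the iron-binding protein lipocalin-2, was at 627 CPM in KO and 175 CPM in WT (1.84, 1.60 to 2.10, from 1.53 to 2.51 over the alternatives). Lcn2 is also high in neutrophils, whose 8 markers held 0.0170% of the UMIs of KO and 0.00783% of WT endothelial-like cells, with 4 at 0 in each, and in all other classes it was at 105 CPM in KO and 63.8 CPM in WT. The part of neutrophil RNA in the difference was not tested. Vwf, von Willebrand factor, was at 291 CPM in KO and 180.0 CPM in WT (0.70, 0.42 to 0.98). The Vwf ratio fell short of 1.5-fold with the stricter cell filter (0.57) and without the cells with mural markers (0.48). Of the adhesion genes, Vcam1 was at 77.4 CPM in KO and 208 CPM in WT (-1.43, -1.84 to -1.04) and Icam1 at 32.9 and 101 CPM (-1.62, -2.25 to -1.02), which was -0.67 with thinning. Of the endothelial-like cells, 45 of 255 in KO and 27 of 166 in WT were venous-leaning. That call itself used markers of veins, so these shares are no separate measure beside the venous list.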

How the data were processed

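Per the file headers, the labels and the submitters' processing notes, the authors made raw UMI counts per gene and barcode with Cell Ranger 4.0.0 (build mm10; Seurat 3.0 and R 4.0.3 are listed as well) from 1 KO and 1 WT library. The counts are deposited without normalization and hold called cells only. No label names the gene annotation, so positions come from GENCODE M21, matched on identifiers (99.6% found).

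A barcode had to show 500 genes and stay within 20% mitochondrial UMIs, which removed 1702 KO barcodes (18.5%) and 1998 WT barcodes (27.9%). The automatic threshold of Scrublet in scanpy 1.11.5 marked 4 KO and 0 WT cells and was taken as failed, so the highest scores were removed at 0.8% per 1000 barcodes (448 KO and 212 WT cells). A cell joined the type with the highest mean log marker level if at least 4 markers had UMIs (3 for lists under 8 genes) with a 1.5-fold lead over the next type. That left 373 KO cells (5.30%) and 627 WT cells (12.7%) in no class. The endothelial-like class was led by Flt1, Ly6c1 and Ptprb, with Cldn5 and Slco1a4 also among its 10 leading genes, and no class had more markers of another type than of its own among its 10 leading genes.

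For each cell class, summed counts per class and library were scaled to CPM, with exact Poisson intervals, exact conditional binomial intervals for ratios and exact Clopper-Pearson intervals for shares, at 95%. Ratios needed 50 UMIs over both libraries. UMIs tag molecules, but free RNA and doublets can still place a transcript in another class. The step that takes KO over WT ratios with their intervals was tested on simulated counts. The members and lists were chosen with earlier results of these data known. All 9 members were described in every class with at least 30 cells per library, and from each list up to 3 genes with the most UMIs and up to 4 with the largest ratios, at 100 UMIs, could be named. For likeness the 8 genes with the highest mean correlation were named, among genes with at least 100 UMIs in endothelial-like cells, without the members and the endothelial markers. Upstream regions are from RefSeq. The work ran in Python 3.11.15 with scipy 1.17.1 for intervals, leidenalg 0.10.2 for clusters and matplotlib 3.10.9 for plots.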

Additional observations from a re-analysis of the deposited data

Results flagged for a closer look

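Transcripts of the barrier genes also occurred in barcodes that the comparisons did not use. In cells of no class, Cldn5 was at 148 CPM in the KO library (373 cells, of which 18 had UMIs of at least 4 endothelial markers) and 279 CPM in the WT library (627 cells, 37 with such markers), above its level in astrocyte-like cells. In barcodes removed by the filter it was at 19.5 CPM in the KO library (1702 barcodes) and 16.2 CPM in the WT library (1998 barcodes). In cells of no class, Abcg2 was at 218 CPM in KO and 193 CPM in WT, and Abcb1a at 149.5 and 196 CPM.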

How the results depend on the processing

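No paired analysis was possible because there was 1 library per genotype. The median log2 fold of the members over all other classes was 6.10 in KO and 5.97 in WT. It was 5.87 in KO with doublets kept, and 7.28 in KO and 6.76 in WT with Leiden clusters in place of the gate (27 clusters, made without the members); the cause was not tested. At least 2-fold over all other classes were 8 of 9 members in KO and 9 of 9 in WT, against 14.5% and 13.8% of all genes. The companion genes 1.5-fold apart were 8 higher and 8 lower in KO, and 3 and 4 at 2-fold, a stricter rule by construction. The median KO over WT ratio of the members ran from 0.00 to 0.28 over the alternatives, the highest with clusters. The trimmed-mean scaling term was -0.02, with a median of 0.18. Leaving out cells over 1% hemoglobin (24 KO and 40 WT) gave 0.16; this, a total without hemoglobin, and the removal of cells with endothelial markers from other classes were chosen after seeing the data. Ackr1, a venous gene, was at -1.48, at -0.19 with doublets kept and at -0.36 with thinning. Depth limited Ocln and Mfsd2a most, with 1 UMI in the median endothelial-like cell of both libraries.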

Other observations

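Barrier genes also marked small classes outside the comparison, each with under 30 cells in at least 1 library. Fibroblast-like cells, led by the matrix gene Dcn (46 KO and 17 WT cells), held both efflux pump genes. Abcg2 was at 646 CPM (577 to 722) in KO and 572 CPM (491 to 663) in WT fibroblast-like cells, with UMIs in 33 of 46 and 15 of 17 cells. Abcb1a was at 305 CPM (258 to 358) in KO and 521 CPM (444 to 607) in WT. Cldn5 had 2 UMIs in KO and 1 UMI in WT there, and Slco1a4 had 2 in KO and 0 in WT.

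Ependymal-like cells (26 KO and 23 WT), which line the ventricles, held Slc2a1 at 388 CPM (322 to 462) in KO and 423 CPM (353 to 502) in WT, and Ocln at 75.6 CPM (48.4 to 113) in KO and 114 CPM (79.3 to 158) in WT, with 0 Cldn5 UMIs in KO and 1 in WT. Oligodendrocyte precursor-like cells (16 in each library) held Mfsd2a at 238 CPM (163 to 336) in KO and 199 CPM (153 to 253) in WT, against 28.2 CPM in KO and 22.6 CPM in WT oligodendrocyte-like cells. Monocyte-like cells (95 KO and 29 WT) held Slc2a1 at 35.2 CPM in KO and 22.5 CPM in WT.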
